A study of Dendrobium officinale with 6 samples.

Results

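Aquaporins are channel proteins of the major intrinsic protein family that let water, and in some members small uncharged solutes, cross membranes. In plants the plasma membrane intrinsic proteins (PIPs) sit mainly in the plasma membrane, the tonoplast intrinsic proteins (TIPs) in the membrane of the vacuole, the nodulin 26-like intrinsic proteins (NIPs) carry solutes such as glycerol, boric acid or silicic acid, and the small basic intrinsic proteins (SIPs) were located in the endoplasmic reticulum in Arabidopsis. Aquaporins of these subfamilies were examined in the orchid *Dendrobium officinale*. Members were all unigenes (assembled transcripts) whose first listed KEGG ortholog was K09872 (PIP), K09873 (TIP), K09874 (NIP) or K09875 (SIP), and 83 of 157901 unigenes met this rule.

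RNA-Seq compared leaves with protocorm-like bodies (PLBs), which are masses of embryo-like tissue propagated in culture, in 3 libraries per tissue. Leaves came from the original plants, which the paper's methods place in a greenhouse. PLBs were started from seeds. For them the labels name 1/2 MS medium with α-NAA at 0.5 mg/L, 6-BA at 1.0 mg/L, 2,4-D at 1.5 to 2.0 mg/L and potato juice at 100 g/L, and, in a separate entry, culture for 60 days with light for 16 h and dark for 8 h a day. The paper's methods tie the 60 days to induction on a medium with 2,4-D alone as growth regulator and its results give the formula with potato juice for later propagation, so which medium the sequenced PLBs last grew on is not settled by these sources. Since PLBs were seed-derived and grown on hormones while leaves were taken from grown plants, the organ, the culture and the genotype of the seeds cannot be told apart. In bulk tissue, fewer cells of a type and less RNA per cell cannot be told apart either.

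The 83 members comprised 22 PIP, 12 TIP, 41 NIP and 8 SIP unigenes, from 201 to 2953 bp in length with a median of 1269 bp. The protein domain that defines the family was annotated in 61 of them, and 76 carried the name of an aquaporin or of nodulin 26 in their protein match. The 7 without such a name were all NIP unigenes. Reads were found in both tissues for 58 members, in leaves only for 12, in PLBs only for 10 and in neither for 3. Many unigenes were contigs of the same transcript cluster, and 77 of the 83 matched 27 genes of *Dendrobium catenatum*, of which 21 were matched by several unigenes. Reads that fit several contigs had been divided among them, and 83.6% to 93.7% of the members' values above 0 were not whole numbers, so the sum over a gene is firmer than the value of a contig. Some clusters held contigs that matched different genes, and a sum by gene does not undo the division of reads between those genes. In what follows, a gene means such a matched gene, given with its identifier, and its FPKM (mapped fragments per kilobase of unigene, scaled to the depth of the library) is the sum over its unigenes.

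Libraries held 17602153 to 18408442 expected counts. The tissue labels were checked against markers. All 12 orthologs of the photosynthesis list with counts (mainly light-harvesting proteins and the small subunit of Rubisco) were lower in PLBs, with a summed FPKM of 18046 to 21278 in leaves and 807 to 2054 in PLBs, and all 7 orthologs of the dividing-cell list (the MCM helicase and PCNA) were higher in PLBs. Over all 4103 orthologs tested, 37.2% were higher and 38.6% lower in PLBs at an adjusted p under 0.05. None of these marker orthologs was at 0 in any library. Vascular markers did not move together. Xylem cysteine proteinase summed to 4.93 to 7.82 FPKM in leaves and 13.7 to 25.7 in PLBs, whereas sieve element occlusion protein was at 2.52 to 3.20 and 0.65 to 1.23 FPKM. Cellulose synthase subunits named 4, 7 and 8 were at 15.1 to 18.03, 13.7 to 20.9 and 79.4 to 90.6 FPKM in leaves. In PLBs they were at 4.46 to 5.09, 0.14 to 0.25 and 103 to 149 FPKM. Whether the subunit named 8 belongs to the secondary wall is not settled by its name. These marker differences run alongside every comparison given here, and their part in the aquaporin values was not tested.

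Aquaporin transcripts took up a larger part of the PLB transcriptome. The 83 members held 0.322% to 0.325% of all TPM in leaves and 0.479% to 0.514% in PLBs, so the groups did not overlap. Their summed FPKM was 2233 ± 25.8 (SD, n = 3) in leaves and 2950 ± 194 (SD, n = 3) in PLBs, a ratio of 1.32. The exact two-sided permutation test over the 6 libraries gave p = 0.1, the smallest value that 3 against 3 libraries allow, for both measures. On the scale of library size alone the median log2 change over all tested unigenes was 0.32 in PLBs against leaves. Whether the rise of aquaporins exceeds that of other gene families was not tested.

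PIPs were the most abundant subfamily in both tissues. PIP unigenes summed to 1289, 1276 and 1268 FPKM in leaf replicates 1, 2 and 3, and to 1863, 2098 and 1977 FPKM in PLB replicates 1, 2 and 3. TIPs summed to 793, 789 and 853 FPKM in leaves and to 837, 905 and 714 FPKM in PLBs, with overlapping ranges. NIPs summed to 48.4, 51.3 and 45.6 FPKM in leaves against 72.4, 89.1 and 77.7 FPKM in PLBs. SIPs were the only subfamily with lower FPKM in every PLB library, at 95.5, 95.1 and 95.0 FPKM in leaves and 65.5, 81.9 and 69.9 FPKM in PLBs.

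**Figure D1:**
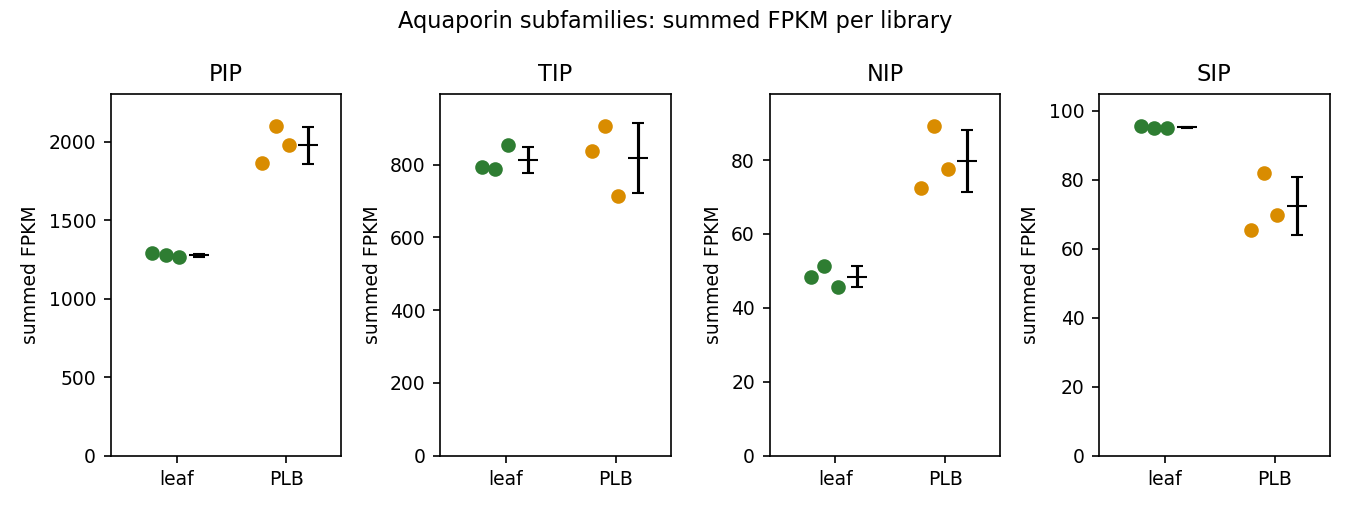
Summed FPKM (y axis, from 0, a separate scale in each panel) of PIP, TIP, NIP and SIP unigenes in leaf and PLB libraries, 1 point per library, with the mean and SD (n = 3) as a bar to the right. PIP and NIP points of the PLBs lie above all leaf points, SIP points lie below them, and TIP points overlap.

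For the test of each subfamily, expected counts were summed over its unigenes and fitted with edgeR's quasi-likelihood test together with all other KEGG orthologs, with Benjamini-Hochberg adjustment over 4103 orthologs, of which 75.8% were called at an adjusted p under 0.05. This fit rescales libraries by TMM factors, which FPKM does not use. On the scale of library size alone the median change over all orthologs (log2) was 0.26, against 0.01 with TMM. A fitted change thus lies below that with library size only. FPKM also divides by unigene length, so summed FPKM can differ further from summed counts. With library size only and with limma on log2 FPKM (pseudocount 0.1), the change was 0.53 and 0.71 for NIP, and 0.61 and 0.63 for PIP. On the TMM scale PIP was higher in PLBs with a fitted log2 change of 0.36 (SE 0.08, adjusted p = 0.00462) and SIP was lower at -0.57 (SE 0.09, adjusted p = 7.66e-04). TIP was at -0.26 (SE 0.10, adjusted p = 0.0415) and NIP at 0.28 (SE 0.11, adjusted p = 0.0402).

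Of these 4 calls, that for PIP held under every alternative. The TIP call was lost with library size only (-0.02), RLE size factors (-0.25), no filter on low counts (-0.25) and limma on log2 FPKM. It was also lost without leaf replicate 1, 2 or 3 or PLB replicate 1 or 3 (log2 fold changes of -0.29, -0.28, -0.22, -0.27 and -0.18). The NIP call was lost with the TMM factors of the unigene fit (0.21). It was also lost without leaf replicate 1, leaf replicate 3 or PLB replicate 2 (log2 fold changes of 0.27, 0.23 and 0.17). Single unigenes carried several sums. CL8008.Contig1 (TIP1-1) held 47.7% of TIP counts, and the TIP sum without it was at -1.49. Unigene377 (SIP1-1) held 53.3% of SIP counts, and without it the SIP sum was at 0.15 and not called. Without CL11543.Contig7 (NIP1-1), which held 15.8% of NIP counts, the NIP sum was at -0.09 and not called.

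The balance of subfamilies within a library does not depend on the scaling of libraries. It does depend on the division of FPKM by unigene length. PIPs made up 57.2% ± 1.02 of leaf and 67.1% ± 2.19 of PLB aquaporin FPKM (SD, n = 3). TIPs made up 36.3% ± 1.199 and 27.7% ± 2.28, NIPs 2.17% ± 0.15 and 2.70% ± 0.13, and SIPs 4.26% ± 0.06 and 2.45% ± 0.14. The 3 leaf and 3 PLB values did not overlap for any subfamily, and each difference had p = 0.1 by the exact permutation test, the smallest possible, and 0.1 after adjustment over the 4 shares. Among the 6 log2 ratios between subfamilies, SIP to NIP shifted most, from 0.98 ± 0.08 in leaves to -0.14 ± 0.02 in PLBs (exact p = 0.1, adjusted p = 0.12), so SIPs exceeded NIPs in each leaf library and not in any PLB library. The ratio of NIP to PIP was -4.72 ± 0.08 in leaves and -4.64 ± 0.07 in PLBs (exact p = 0.3, adjusted p = 0.3), a difference within the spread between libraries.

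At the level of genes the picture differed from that of the sums, since genes of 1 subfamily often went opposite ways. Of the 23 genes with enough counts for the test, 11 were higher and 9 lower in PLBs at an adjusted p under 0.05. The other 3 were not called. The 11 include LOC110094666 and LOC110100871, whose nucleotide matches are not aquaporin genes, so their identity is uncertain. Over all 17235 matched genes, 74.5% were called, 37.0% higher and 37.5% lower, and for the aquaporin genes the share called was 87.0%. The median size of the log2 fold change was 1.22 in the aquaporin genes and 1.01 in all genes. Grouping by annotated name in place of matched gene gave 15 testable groups with 6 higher and 6 lower, against a background of 73.6% called, 36.2% higher and 37.4% lower.

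**Figure D2:**
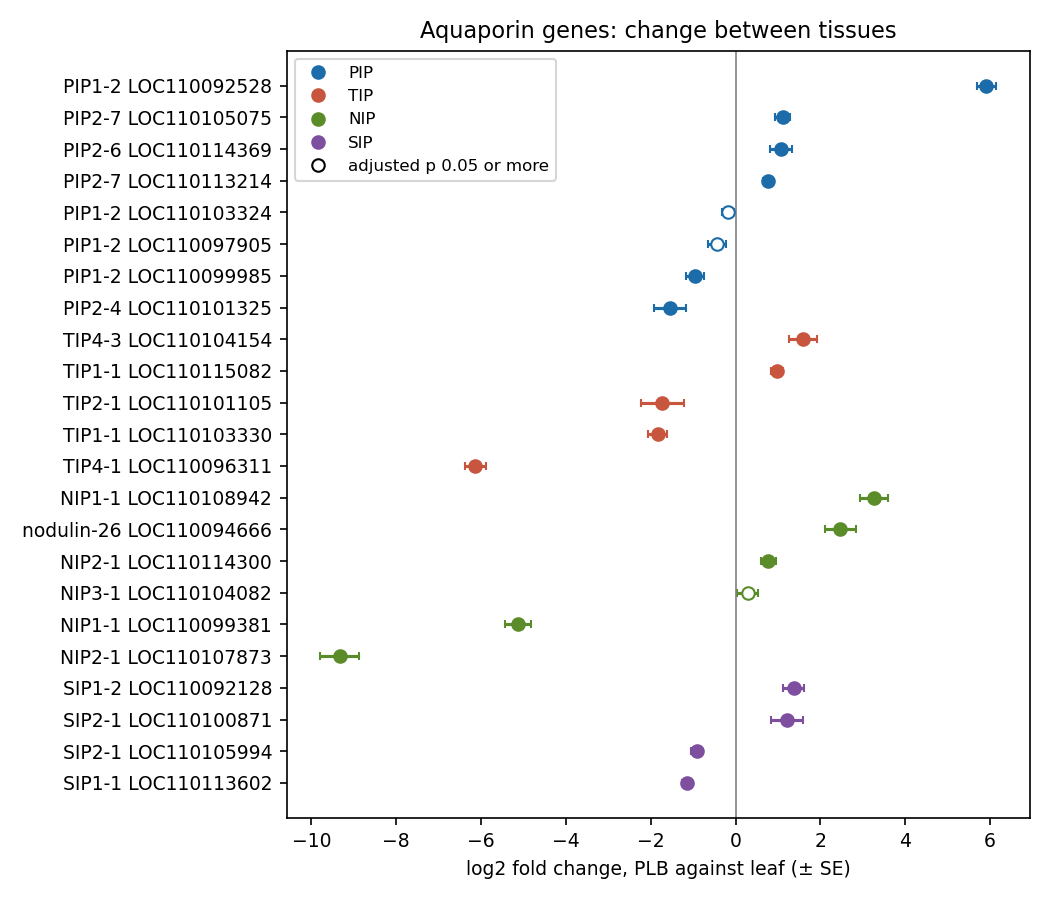
Log2 fold change of PLBs against leaves (x axis, ± SE, edgeR on summed counts) for the 23 tested aquaporin genes (y axis), coloured by subfamily, with open circles for an adjusted p of 0.05 or more. Each subfamily has genes on both sides of 0, from -9.34 for NIP2-1 LOC110107873 to 5.92 for PIP1-2 LOC110092528. The identity of LOC110094666 and LOC110100871 is uncertain.

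PIP1 proteins are known to reach the plasma membrane of maize cells mainly when paired with PIP2 proteins. The 4 genes named PIP1-2 behaved differently from each other. LOC110092528 was at 1.30, 1.68 and 1.12 FPKM in leaves and at 87.5, 98.6 and 129 FPKM in PLBs. It was nearly silent in leaves and well above the leaf level in each PLB library, with a fitted log2 change of 5.92 (SE 0.22, adjusted p = 1.08e-06). LOC110099985 was at 207, 208 and 203 FPKM in leaves and at 187, 100.4 and 112 FPKM in PLBs, lower at -0.95 (SE 0.21, adjusted p = 0.00431).

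The other two PIP1-2 genes were not called. LOC110097905, the most abundant PIP gene of leaves, was at 399, 391 and 407 FPKM in leaves and at 432, 394 and 241 FPKM in PLBs, with overlapping groups and PLB replicate 3 apart from the other two (log2 fold change -0.43, SE 0.21, adjusted p = 0.0919), and it passed the threshold under 1 of the 13 alternatives, DESeq2. LOC110103324 was at 164, 160 and 166 FPKM in leaves and at 216, 212 and 152 FPKM in PLBs (log2 fold change -0.18, SE 0.15, adjusted p = 0.289), and its sign turned with library size only (0.09). Summed over the name, PIP1-2 was at 761 to 776 FPKM in leaves and 635 to 922 FPKM in PLBs, so the gain of LOC110092528 was not visible in the sum, whose log2 fold change was -0.28 (SE 0.16, adjusted p = 0.14) and 0.04 with library size only.

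PIP2 proteins are efficient water channels on their own. PIP2-6 (LOC110114369) was at 228, 248 and 206 FPKM in leaves and at 381, 606 and 821 FPKM in PLBs. The groups did not overlap, though the PLB libraries differed from each other by more than the leaf libraries, and the log2 fold change was 1.07 (SE 0.27, adjusted p = 0.00731). Both genes named PIP2-7, whose unigenes share transcript cluster CL1890, were higher in PLBs. LOC110105075 went from 79.2, 69.2 and 76.0 FPKM to 194, 313 and 207 FPKM (log2 fold change 1.11, SE 0.18, adjusted p = 9.03e-04), and LOC110113214 from 161, 156 and 161 FPKM to 337, 354 and 306 FPKM (0.75, SE 0.11, adjusted p = 4.35e-04). PIP2-4 (LOC110101325) was the PIP2 gene that was lower in PLBs, at 48.5, 41.5 and 48.5 FPKM in leaves and 29.7, 20.5 and 8.68 FPKM in PLBs (-1.55, SE 0.37, adjusted p = 0.00575). All 6 called PIP genes kept direction and call under the 13 alternatives run for genes.

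In the TIP subfamily, whose summed FPKM overlapped between tissues, the leading gene differed. TIP4-1 (LOC110096311) was the most abundant aquaporin gene of leaves, at 463, 443 and 513 FPKM, and was at 9.06, 10.3 and 5.64 FPKM in PLBs. Its fitted log2 change, -6.14 (SE 0.25, adjusted p = 1.30e-06), was the second most negative of all tested aquaporin genes. TIP1-1 (LOC110115082), of the group that is abundant in vacuoles of elongating Arabidopsis cells, was at 318, 333 and 328 FPKM in leaves and at 810, 880 and 699 FPKM in PLBs (0.98, SE 0.13, adjusted p = 3.02e-04). It was the most abundant aquaporin gene of PLBs by mean, but PIP2-6 LOC110114369 was above it in PLB replicate 3, at 821 FPKM.

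The difference can be read within each library, without any scaling. The log2 ratio of TIP1-1 LOC110115082 to TIP4-1 LOC110096311 was -0.54, -0.41 and -0.65 in leaves and 6.48, 6.42 and 6.95 in PLBs, given as a description since the pair was chosen after its values were seen. TIP1-1 LOC110115082 alone held 14.6% ± 0.39 of aquaporin FPKM in leaves and 27.0% ± 2.07 in PLBs, and TIP4-1 LOC110096311 held 21.2% ± 1.38 and 0.28% ± 0.07 (SD, n = 3).

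The remaining TIP genes were low. A further TIP1-1 gene, LOC110103330, changed opposite to its namesake, from 6.40, 7.88 and 6.90 FPKM in leaves to 2.68, 2.01 and 2.65 FPKM in PLBs (-1.84, SE 0.22, adjusted p = 1.77e-04). TIP4-3 (LOC110104154) was higher in PLBs, from 2.53, 2.53 and 2.36 FPKM to 12.5, 10.3 and 5.41 FPKM (1.59, SE 0.33, adjusted p = 0.00302). TIP2-1 (LOC110101105) went from 3.17, 2.19 and 2.08 FPKM to 1.58, 0.86 and 0.33 FPKM (-1.72, SE 0.51, adjusted p = 0.0153), a call lost without leaf replicate 1 (-1.52). The second gene named TIP4-1, LOC110114169, had 3 counts over the leaf libraries and 32 over the PLB libraries. It was too low for the test, with a ratio of 8.67 (exact 95% interval 2.71 to 44.2, counting error only). Its unigene shares transcript cluster CL2613 with a unigene of TIP4-3.

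**Figure D3:**
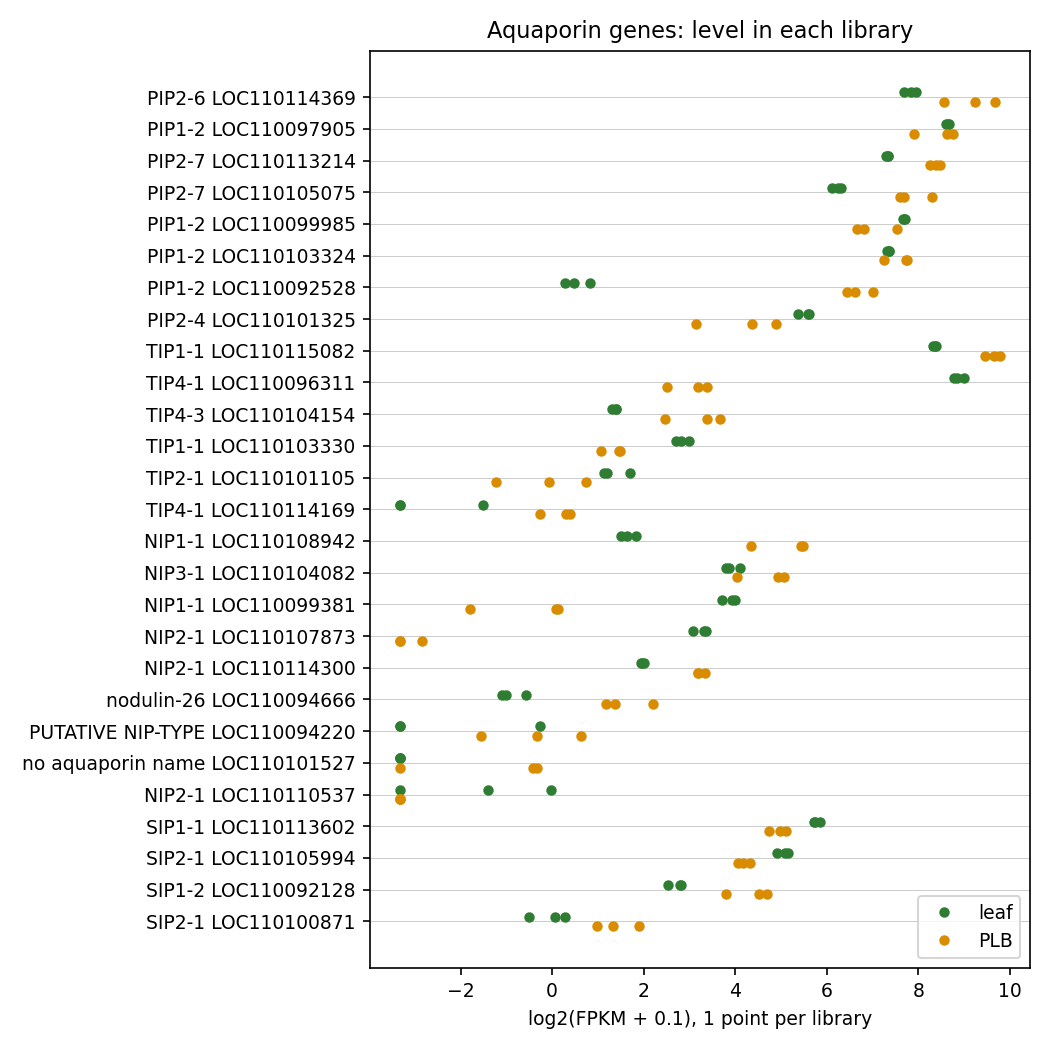
Level of each of the 27 matched genes (y axis, grouped by subfamily) in each library as log2(FPKM + 0.1) (x axis). The 3 leaf points are green and the 3 PLB points orange. LOC110101527 carries no aquaporin name, and the identity of LOC110094666 and LOC110100871 is uncertain. Points at the far left are libraries at 0 FPKM. TIP4-1 LOC110096311 exceeds TIP1-1 LOC110115082 in every leaf library and is far below it in every PLB library. The PIP1-2 genes LOC110097905 and LOC110103324 overlap between tissues.

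NIP genes were low, yet held some of the largest contrasts between tissues. NIP1-1 was represented by a pair of genes that went opposite ways, although their unigenes are contigs of the same transcript cluster, CL11543. How reads were divided between the genes was not tested. LOC110099381 was at 15.3, 15.9 and 13.1 FPKM in leaves and at 0.99, 0.19 and 0.96 FPKM in PLBs (log2 fold change -5.13, SE 0.31, adjusted p = 6.14e-06). LOC110108942 was at 2.76, 3.48 and 3.02 FPKM in leaves and at 20.4, 43.5 and 44.8 FPKM in PLBs (3.25, SE 0.33, adjusted p = 6.84e-05). Summed over the name, NIP1-1 was not called (0.51, SE 0.28, adjusted p = 0.129), although it was called without PLB replicate 1 (0.81), on FPKM with limma (0.97 at a pseudocount of 0.1) and with library size only (0.83).

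NIP2 genes belong to the group whose rice member takes up silicic acid. NIP2-1 showed a like divergence. LOC110107873 was at 9.81, 10.3 and 8.33 FPKM in leaves and at 0.04, 0 and 0 FPKM in PLBs. It had 745 counts over the leaf libraries and 1 count over the PLB libraries, a ratio of 917 after scaling (exact 95% interval 164 to 36259, counting error only). LOC110114300 was at 3.92, 3.73 and 3.79 FPKM in leaves and at 9.99, 8.95 and 9.04 FPKM in PLBs (0.77, SE 0.18, adjusted p = 0.00461). The NIP2-1 name as a whole was lower in PLBs at -1.41 (SE 0.14), in the direction of the gene with the larger leaf level. On FPKM with limma at a pseudocount of 0.1 the change of the name was -0.55.

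NIP3-1 (LOC110104082), matched by 9 unigenes, was not called. It was at 13.9, 17.2 and 14.5 FPKM in leaves and at 30.3, 33.3 and 16.4 FPKM in PLBs (0.28, SE 0.25, adjusted p = 0.324), and it was called without PLB replicate 3 (0.54) and on FPKM with limma (0.75 at a pseudocount of 0.1). The unigene named nodulin-26 (Unigene10587) was higher in PLBs, from 0.37, 0.40 and 0.57 FPKM to 4.50, 2.15 and 2.50 FPKM (2.46, SE 0.39, adjusted p = 7.90e-04). It carries the protein domain of the family, but its nucleotide match was a peptidyl-prolyl isomerase gene, LOC110094666, so its identity is uncertain. The 7 NIP members without an aquaporin name were all too low for the test.

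Of the SIP genes with an SIP match in both annotations, 2 were lower and 1 higher in PLBs. SIP1-1 (LOC110113602) was at 53.3, 57.5 and 52.6 FPKM in leaves and at 31.5, 34.3 and 26.8 FPKM in PLBs (-1.14, SE 0.11, adjusted p = 6.51e-05). SIP2-1 (LOC110105994) was at 34.0, 30.2 and 35.7 FPKM in leaves and at 16.5, 20.1 and 17.9 FPKM in PLBs (-0.92, SE 0.12, adjusted p = 3.09e-04). SIP1-2 (LOC110092128) went the other way, from 6.99, 6.81 and 5.72 FPKM to 13.8, 25.7 and 22.8 FPKM (1.38, SE 0.25, adjusted p = 0.00143). The libraries of these 3 genes did not overlap between tissues. Among the 27 matched genes of the members, 9 had every leaf library above every PLB library and 12 the reverse. How often this holds over all genes was not counted. Of all matched genes, 37.0% were called higher and 37.5% lower in PLBs.

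A further pair of unigenes with the name SIP2-1 carry the protein domain of the family. In the nucleotide annotation they matched a purple acid phosphatase gene, LOC110100871, so what they measure is uncertain. They summed to 1.11, 0.60 and 0.95 FPKM in leaves and to 3.65, 1.88 and 2.42 FPKM in PLBs (1.22, SE 0.38, adjusted p = 0.0194). That call was lost without leaf replicate 2, leaf replicate 3 or PLB replicate 1 (log2 fold changes of 0.99, 1.26 and 0.94).

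In rank order, the leading genes of leaves were TIP4-1 LOC110096311 with 21.2% of aquaporin FPKM, PIP1-2 LOC110097905 with 17.9%, TIP1-1 LOC110115082 with 14.6%, PIP2-6 LOC110114369 with 10.2% and PIP1-2 LOC110099985 with 9.24%. In PLBs they were TIP1-1 LOC110115082 with 27.0%, PIP2-6 LOC110114369 with 20.5%, PIP1-2 LOC110097905 with 12.04%, PIP2-7 LOC110113214 with 11.3% and PIP2-7 LOC110105075 with 7.99%. In leaves the libraries of PIP2-6 and PIP1-2 LOC110099985, the fourth and the fifth, overlapped in share. In PLBs each of the first 4 genes overlapped with its neighbour in the order, with an SD of 7.83 for PIP2-6 and 3.37 for PIP1-2 LOC110097905. The 5 leading genes together held 72.6% to 73.4% in leaves and 75.9% to 80.2% in PLBs, and 3 of them were shared.

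Of the 83 unigenes, 59 had enough counts for the test of single unigenes, and 24 did not. With the adjusted p no higher than 0.001 and the log2 fold change at 1 or more in either direction, 15 were higher and 17 lower in PLBs, which is 54.2% of those tested. Over all 70383 unigenes, 39.7% were called, 16.8% higher and 22.9% lower. The median log2 fold change was 0.07 in the members and 0.00 in all unigenes, and the median size was 2.69 and 1.99. PIP had 7 higher and 4 lower of 20 tested, TIP 1 and 5 of 10, NIP 6 and 6 of 22, and SIP 1 and 2 of 7. With 2 leaf libraries the count fell to 14, 15 or 12 without leaf replicate 1, 2 or 3, and it was 19 without PLB replicate 2. The shares of all unigenes called in these smaller fits were not counted.

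**Figure D4:**
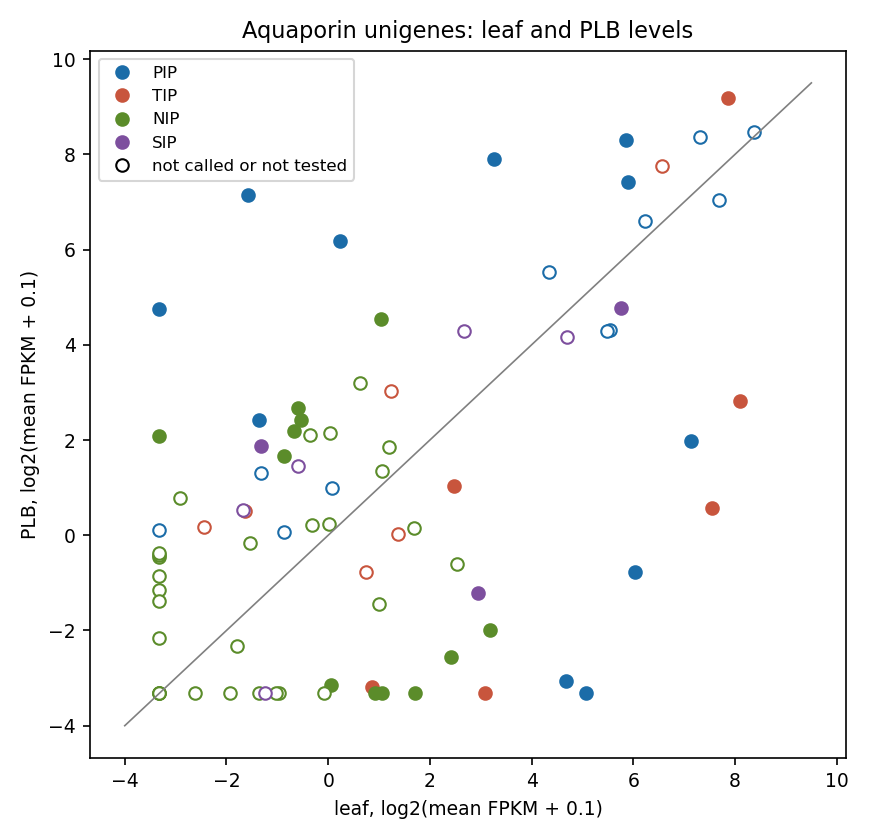
Mean level of the 83 aquaporin unigenes in leaves (x axis) and PLBs (y axis) as log2(mean FPKM + 0.1), coloured by subfamily, filled where called and open otherwise, with the line of equal FPKM in grey. Filled points lie on both sides of the line, 15 higher and 17 lower in PLBs.

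The unigenes with the largest changes, among those called with a mean of at least 5 FPKM in a tissue, were all of PIPs or TIPs. Unigene24247 (PIP1-2 LOC110103324) was at 33.3 ± 2.56 FPKM (SD, n = 3) in leaves and had no counts in PLBs, at least 911-fold lower by a floor of 3 counts over the PLB libraries. Unigene14617 of the same gene had 2717 counts over the leaf libraries and 2 over the PLB libraries, a ratio of 1678 (exact 95% interval 464 to 13863). CL13531.Contig2 (PIP1-2 LOC110097905) went from 65.7 ± 5.24 to 0.48 ± 0.49 FPKM. From TIP4-1, CL3843.Contig2 was at 8.43 ± 1.03 FPKM in leaves and had no counts in PLBs, at least 244-fold lower, and CL3843.Contig3 went from 187 ± 20.9 to 1.38 ± 0.52 FPKM.

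In the other direction, CL5045.Contig1 (PIP1-2 LOC110092528) had no counts in leaves and was at 27.0 ± 6.94 FPKM in PLBs, at least 478-fold higher. CL5045.Contig3 and Unigene8253 of that gene went from 1.08 ± 0.33 to 71.9 ± 13.5 FPKM and from 0.29 ± 0.05 to 5.23 ± 0.62 FPKM, so the unigenes of LOC110092528 moved together. CL1890.Contig4 (PIP2-7 LOC110105075) went from 0.24 ± 0.24 to 141 ± 56.9 FPKM, and CL2186.Contig4 (PIP2-6) from 9.49 ± 2.77 to 238 ± 105 FPKM.

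Within some genes the unigenes moved opposite ways. Of 17 aquaporin genes with at least 2 tested unigenes, 4 had unigenes called in both directions, PIP2-6 LOC110114369, PIP1-2 LOC110103324, NIP3-1 LOC110104082 and SIP1-1 LOC110113602. Among all genes with at least 2 tested unigenes the share was 25.8%, so aquaporin genes did not stand out in this respect. In PIP2-6, CL2186.Contig1 was at 138, 149 and 133 FPKM in leaves and at 0.29, 4.66 and 6.62 FPKM in PLBs, while CL2186.Contig3 was at 61.0, 65.8 and 46.8 FPKM in leaves and at 220, 310 and 414 FPKM in PLBs. CL2186.Contig1 thus held 61.7% of the gene's FPKM in leaves and 0.55% in PLBs.

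PIP1-2 LOC110103324, whose sum was not called, also differed between tissues in makeup. Unigene26107 held 36.3% of its FPKM in leaves and 88.4% in PLBs, while Unigene24247 and Unigene14617 together were present in leaves and at or near 0 in PLBs. In PIP2-7 LOC110105075 most of the gain lay in CL1890.Contig4, which held 0.33% of the gene's FPKM in leaves and 58.0% in PLBs, whereas CL1890.Contig1 was at 79.0, 68.8 and 76.0 FPKM in leaves and at 99.95, 109 and 82.1 FPKM in PLBs (log2 fold change 0.07, SE 0.16, adjusted p = 0.687). Whether such contigs are isoforms, alleles or copies, and how reads were divided among them, was not tested.

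**Figure D5:**
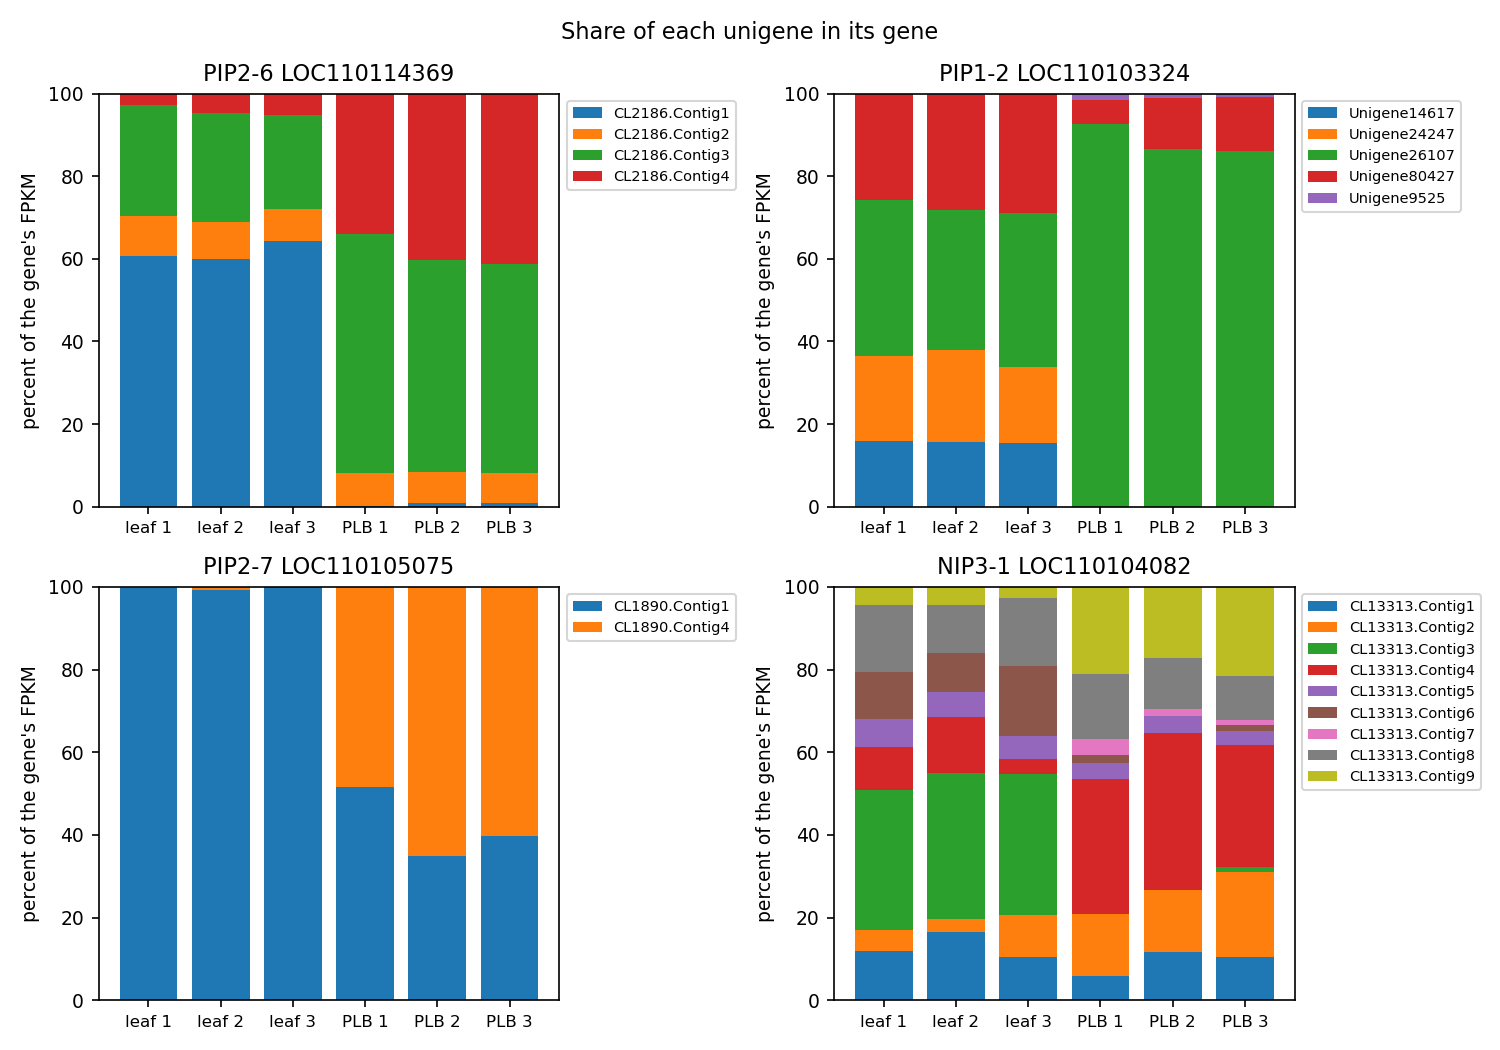
Percent of the gene's FPKM (y axis) held by each unigene (colours) in the 3 leaf and 3 PLB libraries (x axis) for PIP2-6 LOC110114369, PIP1-2 LOC110103324, PIP2-7 LOC110105075 and NIP3-1 LOC110104082. In PIP2-6, CL2186.Contig1 leads in every leaf library and is the smallest part in every PLB library (means of 61.7% and 0.55%), while in PIP2-7 the leading unigene differs among the PLB libraries.

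Proton pumps and solute exporters that work beside aquaporins were examined as a related list. All 12 orthologs of the V-type H+-ATPase, the vacuolar proton pump, were lower in PLBs, against 38.6% of all orthologs, with a median log2 fold change of -1.37, and 11 of 12 were called with library size only. The vacuolar H+-pyrophosphatase, the other proton pump of that membrane, went from 910 ± 8.05 to 236 ± 52.6 FPKM (-2.28, SE 0.19, adjusted p = 2.23e-05). Beside these tonoplast pumps, 3 of the 5 tested TIP genes were lower and 2 higher in PLBs, against 37.5% and 37.0% of all matched genes. The plasma membrane H+-ATPase was at 218 ± 3.63 FPKM in leaves and 184 ± 26.9 FPKM in PLBs and was not called (-0.27, SE 0.11, adjusted p = 0.0612).

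For boron, which some NIPs carry inward, the exporter named boron transporter 1 was higher in PLBs, from 0.97 ± 0.29 to 5.99 ± 2.75 FPKM (2.17, SE 0.26, adjusted p = 1.66e-04), and the one named putative boron transporter 2 was at 10.2 ± 1.146 and 9.59 ± 2.95 FPKM (-0.40, SE 0.22, adjusted p = 0.135). No unigene carried the name of a silicon efflux transporter.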

How the data were processed

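RNA of leaves and PLBs (3 libraries each, stated to be biological replicates) was sequenced by the authors, who assembled unigenes and deposited per library the expected counts, TPM and FPKM, and for the series a table of FPKM with annotation. The submitters' processing notes name Bowtie2 2.2.5, RSEM 1.2.8 and DESeq2. The deposited log2 fold changes, p and q values of the authors' own comparison were not used. Where the labels do not say that replicates came from separate plants or cultures, p-values measure only the spread between these libraries.

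Expected counts were rounded and summed by KEGG ortholog, by ortholog and annotated name, or by ortholog and the *Dendrobium catenatum* gene of the nucleotide match, the last chosen after the data had been seen. edgeR 4.0.16 in R 4.3.3 was used with filterByExpr, TMM factors (0.892 to 0.903 in leaves and 1.07 to 1.14 in PLBs for unigenes), glmQLFit and glmQLFTest, and Benjamini-Hochberg adjustment over all features. The SE was derived from the log2 fold change and F. Unigenes were called where the adjusted p was no higher than 0.001 and the log2 fold change was 1 or more in either direction, and sums at an adjusted p under 0.05. Exact permutation tests were two-sided. The edgeR and limma fits were tested on simulated counts with less spread than these data. In these data the common coefficient of variation of the unigene fit was 0.337. That test therefore does not show how the fits behave at the spread seen here. It did not cover the permutation tests, the floor for counts or the exact intervals. The floor for a tissue without counts, 3 counts over its libraries, and the exact intervals at 95%, cover counting error only.

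Described were all 4 subfamilies, every name group with a mean of at least 10 FPKM in a tissue, all SIP groups, and the 5 largest changes in each direction among called unigenes with a mean of at least 5 FPKM. The remaining genes and contigs named were chosen after their values were seen. The members and lists were chosen with earlier results of these data known. Alternatives used DESeq2 1.42.0, limma 3.58.1, RLE size factors, library size only, no filter, other groupings, and the omission of each library. Nucleotide and protein sequences were not used here.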

Additional observations from a re-analysis of the deposited data

How the results depend on the processing

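Of the 23 tested genes, 18 kept direction and call under all 13 alternatives. The count of called unigenes moved from 32 (15 higher, 17 lower) to 53 (27 and 26) when any fold change with an adjusted p under 0.05 was counted. It was 12 (5 and 7) of 28 when contigs of a cluster were summed. Leaving out 1 library gave 12 to 24 (4 to 11 higher, 8 to 14 lower), with fewer libraries in the fit. The shares of all unigenes or clusters called under these settings were not counted. Whether the members moved more than the whole set is therefore not shown. Groups by name gave 12 calls (6 higher), and groups by matched gene, chosen after the data had been seen, gave 20 (11 higher). The TIP change of -0.26 was -0.25 with RLE size factors, -0.25 without a filter and -0.016 with library size only. It was 0.0066 with limma on log2 FPKM at a pseudocount of 0.1 or 1. The TIP call was lost under each of these settings. When 1 library was left out, the TIP change was -0.33 to -0.18. The NIP change of 0.28 was 0.21 with the TMM factors of the unigene fit and -0.086 without its leading unigene, and was called in neither. It was 0.17 to 0.35 when 1 library was left out. SIP was at 0.15 without its leading unigene. PIP1-2 by name, at -0.28, was at 0.036 with library size only and 0.016 with limma at either pseudocount, and LOC110103324, at -0.18, was at 0.088, 0.23 and 0.22. None of these reversed values was called. Library size only and FPKM leave out the TMM factors, which shift the median of all genes by 0.27, and the cause was not tested for the rest. The shares and ratios of subfamilies kept their signs under all alternatives, each of which used FPKM or TPM. TPM rescales the FPKM of a library by a single factor, so it could not move them beyond rounding. Shares and ratios of summed counts were not computed. On summed counts the fitted change of NIP (0.28) was below that of PIP (0.36), while the FPKM ratio of NIP to PIP rose by 0.085. No paired analysis was possible because the labels number the libraries A10 to A15 without pairing leaves with PLBs. Depth limits the 24 unigenes that were too low for the test.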
